A study of Mus musculus with 93 samples.

Results

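Transcripts of 40 genes for lysosomal enzymes and membrane proteins were followed in mouse embryonic stem cells of the R1 strain. The genes were chosen by name for where their proteins work, with earlier results of these data known, and all 40 were found among the 33924 gene names of the count tables. They were divided by role into 9 cysteine cathepsins, 3 aspartic and serine peptidases, 11 glycosidases, 4 sulfatases and sulfamidase, 7 lipid hydrolases, thioesterase and lipid transfer proteins, 5 membrane proteins including 1 channel, and progranulin. Of the series' 93 samples, the 12 RNA-seq libraries were used, in 2 sets with 3 libraries per group. Set 1 compared wild type with cells carrying Ring1b I53A, a point mutation in the E3 ligase subunit of Polycomb repressive complex PRC1 encoded by Rnf2. Set 2 compared its own wild type with libraries labelled QKO (H1b/c/d/e-QKO), whose genotype is given as loss of the linker histone genes H1b, H1c, H1d and H1e. All 12 libraries came from cells grown in serum with LIF, a cytokine that keeps stem cells undifferentiated. The labels do not say how many clones were used or whether replicates were separate cultures, so p-values describe variation among these libraries, possibly technical only.

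The lysosome is the acidic compartment in which proteins, glycans, lipids and nucleic acids taken up by endocytosis or delivered by autophagy are broken down. Most of its soluble hydrolases are tagged with mannose 6-phosphate in the Golgi and carried there by receptors, while LAMP proteins, LIMP-2 and ion channels sit in its limiting membrane. Many lysosomal genes are known targets of the MiT/TFE transcription factors, which bind an E-box called the CLEAR element near their start sites, and loss of single enzymes causes lysosomal storage diseases.

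In I53A cells 4 cysteine cathepsins rose: Ctsh was 14.0-fold, Ctsc 4.18-fold, Ctsl 2.39-fold and Ctsz 1.75-fold higher than in wild type. The sulfatase Arsb, at very low counts, was 5.40-fold higher. The lysosomal membrane proteins Scarb2, Mcoln1 and Lamp2, the cholesterol carriers Npc1 and Npc2, and the glycosidases Idua, Man2b1 and Hexa were lower. In set 2 the lower genes outnumbered the higher ones 16 to 8, beside 29% lower and 28.7% higher of all genes tested. Hexa at 2.11-fold, Naglu at 1.98-fold and Neu1 at 1.96-fold lower led the falls, while Ctsb, Glb1, Manba and Arsb were higher. After a filter on low counts, 38 of the 40 genes were tested in each comparison with edgeR's quasi-likelihood test, and a gene was called at a Benjamini-Hochberg adjusted p under 0.05 over all genes tested. Ctsk and Ctss were too low to be tested in either. In I53A cells 8 genes were higher, 8 were lower and 22 were not called, which is 42.1% called beside 35.5% of all 15536 genes tested. Set 2 had 63.2% called beside 57.7% of all 15439. Both shares were near the background, and so were the medians: the median log2 fold change of the 38 was 0.01 in set 1 and -0.06 in set 2, against -0.001 and -0.003 over all genes. Groups did not overlap for 24 of the 38 in set 1 (49.4% of all genes) and for 28 in set 2 (61.5%). The plot of log2 fold changes by role shows the 2 comparisons side by side.

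**Figure D1:**
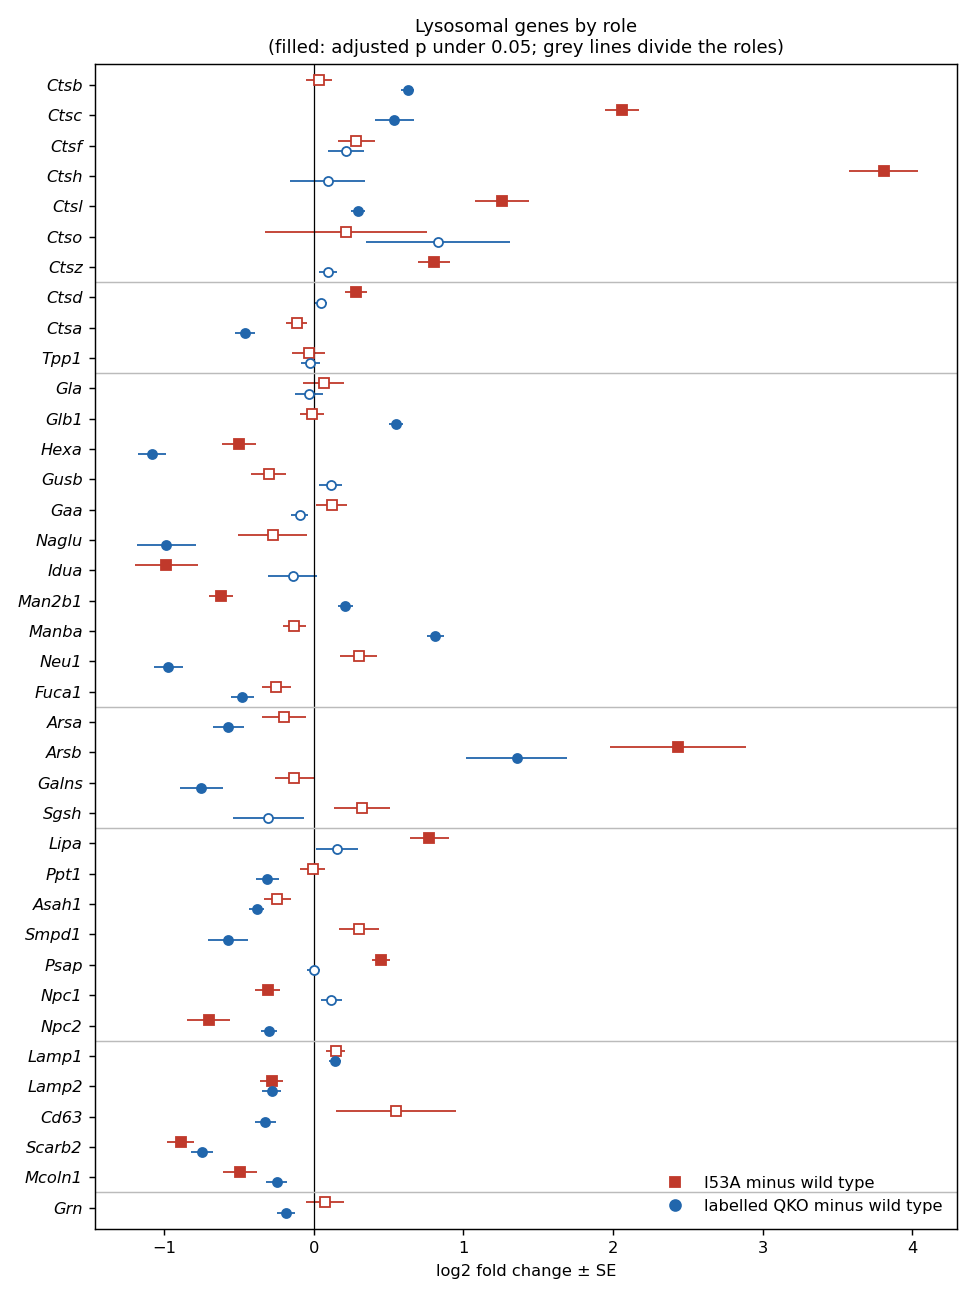
Log2 fold change with its standard error (x axis) for the 38 lysosomal genes tested, ordered by role, in I53A (red squares, 3 against 3 libraries) and in libraries labelled QKO (blue circles, 3 against 3). Filled points were called at an adjusted p under 0.05, and the 7 tested cysteine cathepsins at the top all lie at or above 0 in both comparisons.

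Facts of the libraries that touch these values are as follows. Total counts ranged from 12585621 to 23378930 per library. Rnf2 transcripts were present at 178 to 193 CPM (counts scaled to library size by TMM) in wild type and 85.8 to 98.2 CPM in I53A of set 1. The counts in set 2 do not show a loss of the 4 named H1 genes: Hist1h1c stood at 8.30 to 9.54 CPM in wild type and 7.43 to 9.46 in the QKO-labelled libraries, Hist1h1b was higher in the latter, and Hist1h1d and Hist1h1e had at most 15 counts in any library of set 2. Which part of each gene was deleted is not stated by the labels, so directions in set 2 are tied to the label only. Replicate 3 stood apart from replicates 1 and 2 in both groups of set 1. On replicates 1 and 2 only, 11 of the 38 lysosomal genes tested were called higher and 12 lower, beside 8343 of all 15706 genes called. Of the 23 lysosomal genes called, 22 had the same sign in the pair of replicates numbered 3. That agreement was not counted over all genes. The exception was Cd63, whose reads are shared with a pseudogene. With the replicate number as a block, edgeR called 13 higher and 12 lower beside 8798 of all genes.

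Pluripotency markers were abundant in every library, with a summed level of 6370 to 6990 CPM over 10 markers in wild type of set 1 and 5413 to 5834 in I53A. In set 2 the sum was 6881 to 6956 CPM in wild type against 7836 to 7957 in the QKO-labelled libraries. The 10 pluripotency markers did not move together. In I53A 1 was called higher and 4 lower (50%, beside 35.5% of all genes, or 2 and 5 with the block), and in set 2 6 were higher and 3 lower (90%, beside 57.7%). Of 17 primitive endoderm markers tested in I53A, 16 were higher and 1, Hnf4a, lower, beside 18.1% higher and 17.4% lower of all genes. The sum over 19 markers was 507 to 542 CPM in wild type and 4202 to 4331 in I53A. In set 2 the same sum went from 356 to 379 CPM in wild type to 449 to 458 in the QKO-labelled libraries. There 9 of 15 tested were higher and 1 lower, beside 28.7% higher and 29% lower of all genes. Of the list, Ttr was at 0 in the wild type libraries of set 1 and in every library of set 2. Fibroblast markers (10 genes) summed to 25.4 to 27.4 CPM in wild type and 65.4 to 74.6 in I53A, and to 22.5 to 23.1 and 41.2 to 42.4 in set 2, where the defining Dcn and Lum were at 0. In set 1 Postn, Dcn, Lum and Twist2 had under 10 counts in every library. The 5 fibroblast markers that could be tested there were called higher, as were 3 of 4 tested in set 2, beside 18.1% and 28.7% of all genes. Macrophage markers (10 genes) summed to 9.04 to 11.9 CPM against 18.6 to 22.6 in set 1 and 2.65 to 4.18 against 8.29 to 9.51 in set 2. In each set 7 of the 10, Ptprc, Emr1 and Tyrobp among them, had under 10 counts in every library. Of the 2 macrophage markers tested, 1 was called higher in I53A (2 with the block) and 2 in set 2. The part of these cell types in the lysosomal values was not tested. In such bulk samples, more cells of a type and more RNA per cell cannot be told apart.

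The sequences upstream of the start sites show where the known element of the MiT/TFE factors lies in these genes. RefSeq promoter windows (GRCm38.p6, 250 bases before to 50 after the start) were matched by symbol for 35 of the 40 genes, all except Ctsb, Ctsh, Galns, Asah1 and Npc1. The core E-box CACGTG was found in 12 of the 35 (34.3%), beside 8.09% of the 27025 genes with a window and 11.6% of the 10510 of those tested here. The longer TCACGTGA, which contains the core, was found in 4 (11.4%), Mcoln1, Ctsa, Ctsd and Gla, beside 1.12% and 2.06%. The full palindromic CLEAR consensus, of which TCACGTGA is the inner part, was in 0 of the 35, beside 0.37% and 0.733%. A related M-box-like form, TCATGTGA, was in 5 (14.3%), Ctss, Gla, Grn, Ppt1 and Tpp1, beside 1.15% and 0.913%. Both strands were searched. The 250 bases before the start are shown for the 4 genes with TCACGTGA, which between them were higher, lower and not called, and for Lamp1, which held 4 copies of the core. Letters run 5′ to 3′ on the gene's strand and capitals mark CACGTG.
Mcoln1 (chr8:3500269-3500518, + strand): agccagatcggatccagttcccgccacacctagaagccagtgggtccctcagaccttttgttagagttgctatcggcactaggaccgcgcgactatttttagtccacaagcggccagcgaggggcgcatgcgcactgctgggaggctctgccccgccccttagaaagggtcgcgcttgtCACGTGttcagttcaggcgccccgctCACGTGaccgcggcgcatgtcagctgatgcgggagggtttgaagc
Ctsa (chr2:164833523-164833772, + strand): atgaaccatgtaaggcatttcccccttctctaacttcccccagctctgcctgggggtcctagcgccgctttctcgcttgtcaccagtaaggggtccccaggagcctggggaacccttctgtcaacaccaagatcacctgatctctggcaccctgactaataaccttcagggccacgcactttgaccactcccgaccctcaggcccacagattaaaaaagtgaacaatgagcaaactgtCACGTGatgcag
Ctsd (chr7:142387828-142388077, - strand): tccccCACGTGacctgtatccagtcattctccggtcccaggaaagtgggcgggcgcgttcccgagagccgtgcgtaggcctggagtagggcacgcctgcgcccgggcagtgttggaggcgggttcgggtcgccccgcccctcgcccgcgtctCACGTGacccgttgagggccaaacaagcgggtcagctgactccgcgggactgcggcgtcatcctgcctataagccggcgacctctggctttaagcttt
Gla (chrX:134601006-134601255, - strand): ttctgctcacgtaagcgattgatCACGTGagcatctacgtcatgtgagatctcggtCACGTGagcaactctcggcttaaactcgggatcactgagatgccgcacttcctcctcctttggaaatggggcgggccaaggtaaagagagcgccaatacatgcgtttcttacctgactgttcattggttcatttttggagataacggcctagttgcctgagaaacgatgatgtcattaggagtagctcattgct
Lamp1 (chr8:13158911-13159160, + strand): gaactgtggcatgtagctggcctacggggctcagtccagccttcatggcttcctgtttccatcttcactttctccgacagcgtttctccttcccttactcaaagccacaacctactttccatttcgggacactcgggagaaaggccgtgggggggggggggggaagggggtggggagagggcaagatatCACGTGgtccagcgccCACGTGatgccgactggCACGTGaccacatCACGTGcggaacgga

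In Mcoln1 the 2 cores began at positions -71 and -45 relative to the start, in Ctsd at -245 and -98, and in Gla at -227 and -194. Lamp1 carried 4, at -61, -45, -28 and -15. Ctsa carried 1 upstream copy, at -12. A match describes the letters only. The 12 genes with CACGTG did not share a direction: in I53A 2 were higher, 1 was lower and 9 were not called (5, 1 and 6 with the block), and in set 2 3 were higher, 4 lower and 5 not called. Of the 23 genes whose windows lacked it, 5 were higher, 6 lower and 10 not called in I53A (7, 9 and 5 with the block), and 4 were higher, 10 lower and 7 not called in set 2, with Ctsk and Ctss untested in both.

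Cysteine cathepsins are papain-type proteases of the lysosomal lumen. The 7 tested all had positive log2 fold changes in both comparisons, where 49.9% of all genes in set 1 and 49.7% in set 2 were positive. Not every sign held in the alternative fits. In I53A Ctsb ranged from -0.06 to 0.09 and Ctso from -0.20 to 0.55, and in set 2 Ctsh ranged from -0.10 to 0.235. In I53A 4 were called (57.1%, beside 35.5% of all genes), or 5 with the block, which called 8798 of all 15536 genes. Set 2 had 3 called (42.9%, under the 57.7% of all genes), and none of the 7 was called lower. The summed level of the 9 cysteine cathepsins was 378 to 439 CPM in wild type and 672 to 824 in I53A, and 321 to 330 against 428 to 442 CPM in set 2.

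Gene coordinates from here on are those of mm9, as in the count tables. Ctsh (chr9:89948990-89970927, + strand) encodes cathepsin H, an aminopeptidase. It was at 1.97, 3.015 and 1.45 CPM in the wild type replicates 1 to 3 and at 30.4, 34.5 and 27.2 CPM in I53A. Every I53A library was far above every wild type library, and the log2 fold change was 3.81 ± 0.23 (SE, edgeR adjusted p = 1.77e-05). The set 2 values were 2.32, 2.48 and 1.58 CPM in wild type against 1.84, 2.86 and 2.15 in the QKO-labelled libraries, ranges that overlapped (0.09 ± 0.25, adjusted p = 0.773). The 2 effects differed by 3.73 ± 0.35 on the log2 scale (adjusted p = 1.41e-06).

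Ctsc (chr7:95426595-95459398, + strand) encodes dipeptidyl peptidase I, which activates granule proteases in immune cells. Its values were 10.45, 10.3 and 9.10 CPM in wild type against 42.1, 45.0 and 37.7 in I53A. Set 2 gave 5.45, 7.83 and 7.09 in wild type against 10.0, 10.3 and 9.41 in the QKO-labelled libraries. Groups were apart in both sets, and the rise was 2.06 ± 0.11 in I53A (adjusted p = 1.01e-05) and 0.54 ± 0.13 in set 2 (adjusted p = 0.000354). The I53A effect was larger by 1.54 ± 0.18 (adjusted p = 1.24e-05).

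Ctsl (chr13:64464522-64471614, - strand) encodes cathepsin L, a broad endopeptidase, and was the most abundant cysteine cathepsin per transcript length. It went from 178, 183 and 133 CPM in wild type to 432.9, 445.8 and 300.96 in I53A. The third replicate was the lowest of its group on both sides, and the groups stayed apart (1.26 ± 0.18, adjusted p = 0.00157). In set 2 it went from 139.9, 132 and 128 CPM to 158, 159.6 and 173, a smaller rise (0.29 ± 0.05, adjusted p = 2.63e-07) that the fit of all 12 libraries did not call (adjusted p = 0.16). The difference between the effects was 0.98 ± 0.22 (adjusted p = 0.00441). Ctsl alone made up most of the difference in the summed level of the 40 genes: the sum was 3008 to 3074 CPM in wild type and 3369 to 3421 in I53A, and without Ctsl it was 2859 to 2896 and 2927 to 3068.

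Ctsz, which encodes the carboxypeptidase cathepsin X, was at 76.7, 70.2 and 62.2 CPM in wild type against 131, 126 and 108 in I53A (0.80 ± 0.11, adjusted p = 0.000773). In set 2 its groups overlapped, at 40.9 to 48.8 against 47.3 to 48.4 CPM (0.10 ± 0.06, adjusted p = 0.195), and the effects differed by 0.72 ± 0.13 (adjusted p = 0.000593). Cathepsin B showed the opposite split. Ctsb, whose exons overlap those of Fdft1 over 16.2% of their length, was at 158, 156 and 157 CPM in wild type against 148, 154 and 181 in I53A, with overlapping groups and 1 of the smallest changes of the 38 (0.03 ± 0.09, adjusted p = 0.80). Set 2 had 132, 126 and 131 CPM in wild type against 200.0, 204 and 198 in the QKO-labelled libraries. There the groups were far apart (0.63 ± 0.04, adjusted p = 3.05e-18), and the effects differed by -0.58 ± 0.09 (adjusted p = 0.000211). Ctsf, cathepsin F, was at 12.5 to 15.0 against 15.6 to 17.7 CPM in set 1 and was called with the block (0.29, adjusted p = 0.0364) but not in the 6-library fit without it (0.102).

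The remaining cysteine cathepsins are known from bone, immune and other specialised cells and were near the floor of detection. Ctso had 3 to 17 counts per library and was not called in either set. Ctsk, the collagenase of osteoclasts, had 9, 5 and 7 counts in wild type against 17, 9 and 8 in I53A. Set 2 gave 1, 1 and 0 counts in wild type and 12, 8 and 12 in the QKO-labelled libraries. The ratio of these counts, scaled by library size, was 15.0 with an exact 95% interval of 3.82 to 129 that covers counting error only. In the fit of all 12 libraries, where Ctsk passed the filter, the effects differed by -2.97 ± 0.89 (adjusted p = 0.0174), a call that was lost without set 2 WT replicate 3 (adjusted p = 0.0574). Ctss, an enzyme of antigen-presenting cells, had 2 counts in all 6 libraries of set 1 and, in set 2, 3 in wild type and 8 in the QKO-labelled libraries.

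**Figure D2:**
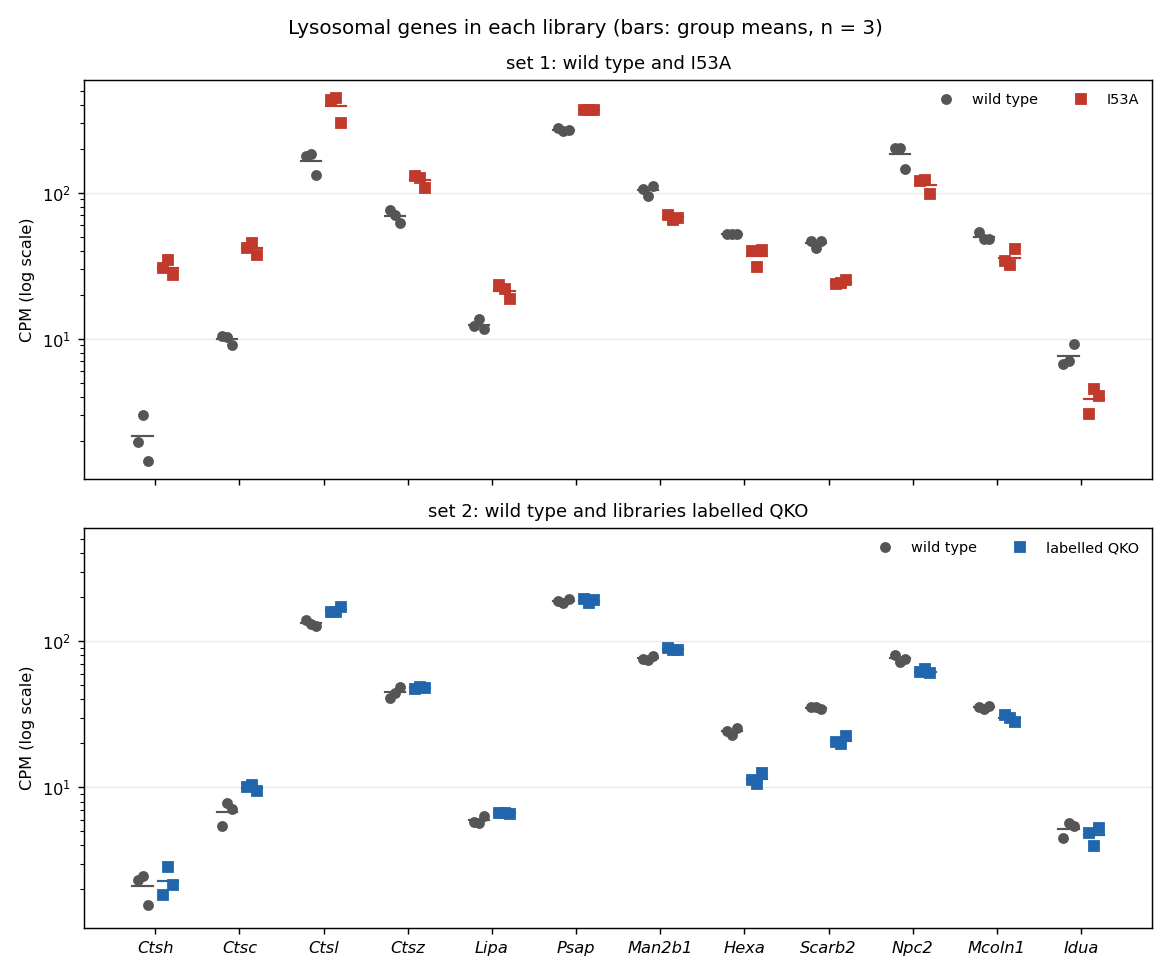
Scaled counts (CPM, log axis) of 12 lysosomal genes in each library, set 1 above and set 2 below. Grey circles are wild type, coloured squares the mutant or labelled group, and bars the means of 3 libraries. In the upper panel the squares of Ctsh, Ctsc and Ctsl stand above the circles and those of Scarb2 and Hexa below them.

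Among the aspartic and serine peptidases, Ctsd encodes cathepsin D, the main aspartic protease of lysosomes. It was at 262, 253 and 247 CPM in wild type against 311, 289.9 and 327 in I53A. The groups were apart by a small step (0.28 ± 0.07, adjusted p = 0.0158), and the call was lost without WT replicate 2 (adjusted p = 0.0645) or I53A replicate 1 (adjusted p = 0.0621). In set 2 Ctsd was at 123 to 133 against 129 to 132 CPM (0.05 ± 0.05, adjusted p = 0.39). Ctsa, the protective protein that stabilises β-galactosidase and neuraminidase, shares 17.4% of its exon length with Neurl2 and Pltp on the other strand. It was at 117, 109 and 117 CPM in wild type against 108, 106 and 102 in I53A, which was not called (-0.11 ± 0.07, adjusted p = 0.229). It fell in set 2 from 51.0, 47.1 and 45.3 CPM to 37.9, 32.1 and 33.7, with every labelled library below every wild type one (-0.46 ± 0.07, adjusted p = 5.38e-08). Tpp1, the tripeptidyl peptidase lost in a neuronal ceroid lipofuscinosis, had among the smallest changes in both sets (-0.03 ± 0.11, adjusted p = 0.841, and -0.02 ± 0.06, adjusted p = 0.771).

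Glycosidases remove sugars from glycans and glycolipids. Of the 11, all tested, none was called higher and 3 lower in I53A (27.3%, beside 35.5% of all genes). With the block 2 were higher and 6 lower. In set 2 3 were higher and 4 lower (63.6%, beside 57.7%). Hexa (chr9:59387474-59412914, + strand), the α subunit of β-hexosaminidase that is lost in Tay-Sachs disease, fell in both sets. It was at 52.2, 52.5 and 52.3 CPM in wild type against 39.9, 31.1 and 40.3 in I53A. Set 2 gave 24.1, 23.0 and 25.5 CPM in wild type against 11.2, 10.5 and 12.6 in the QKO-labelled libraries. All mutant or labelled libraries were below their wild types, by -0.50 ± 0.11 (adjusted p = 0.00967) and -1.08 ± 0.09 (adjusted p = 1.22e-14), and the effects differed by 0.60 ± 0.14 (adjusted p = 0.00456).

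Idua, the α-L-iduronidase of heparan and dermatan sulfate breakdown, was at 6.74, 7.09 and 9.17 CPM in wild type against 3.05, 4.50 and 4.03 in I53A. Its groups were apart (-0.99 ± 0.21, adjusted p = 0.00771), while in set 2 they overlapped, at 4.47 to 5.68 and 3.98 to 5.24 CPM (-0.14 ± 0.16, adjusted p = 0.483). The difference between the effects (-0.82 ± 0.27, adjusted p = 0.0256) was lost in 4 of the alternative fits. Naglu, which acts on the same glycan, was at 3.43, 2.85 and 3.06 against 2.11, 2.59 and 3.08 CPM in set 1, with overlap (-0.27 ± 0.23, adjusted p = 0.395). Set 2 had 4.00, 5.18 and 4.50 against 2.65, 1.99 and 2.20 CPM. Here the groups were apart (-0.98 ± 0.20, adjusted p = 2.71e-05), but the difference from the I53A effect did not pass the test (0.73 ± 0.29, adjusted p = 0.0608).

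The mannosidase genes Man2b1 and Manba encode the α- and β-mannosidase. Man2b1 was called in opposite directions in the 2 sets. It was at 105.2, 95.36 and 111.5 CPM in wild type against 70.2, 65.5 and 67.5 in I53A, a fall by 0.62 ± 0.08 (adjusted p = 0.00081). Set 2 had 75.3, 74.1 and 79.4 CPM in wild type against 90.5, 87.3 and 87.3 in the QKO-labelled libraries, a rise of 0.21 ± 0.05 (adjusted p = 0.000287). The difference between the effects was -0.81 ± 0.09 (adjusted p = 7.09e-06). Manba was not called in I53A (-0.13 ± 0.07, adjusted p = 0.218; 0.0214 with the block), at 120.1, 126 and 130.2 against 109, 112 and 123 CPM. Set 2 took it from 47.1, 43.4 and 48.4 CPM to 83.4, 82.2 and 78.7, a 1.76-fold rise (0.81 ± 0.06, adjusted p = 3.07e-18).

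β-Galactosidase, encoded by Glb1, was at 105, 103 and 116 CPM in wild type against 109.9, 100.0 and 111 in I53A, with overlapping groups and almost equal means (-0.01 ± 0.08, adjusted p = 0.937). It rose in set 2 from 85.35, 89.2 and 85.0 CPM to 130.1, 123 and 127 (0.55 ± 0.05, adjusted p = 9.26e-15), and the effects differed by -0.54 ± 0.09 (adjusted p = 0.000199). Neu1, the sialidase that forms a complex with Glb1 and Ctsa proteins, moved the other way in set 2. It was at 19.4, 20.9 and 21.4 CPM in wild type against 10.9, 10.3 and 10.4 in the QKO-labelled libraries (-0.97 ± 0.10, adjusted p = 1.13e-12). In I53A it was at 24.9, 27.8 and 23.4 against 31.2, 27.2 and 35.6 CPM, with overlap (0.30 ± 0.12, adjusted p = 0.0934; 0.0265 with the block). The effects on Neu1 differed by 1.29 ± 0.15 (adjusted p = 1.13e-05). In the 6-library fits without the block, the 3 members of this complex were not called in I53A, and in set 2 Glb1 was higher while Ctsa and Neu1 were lower.

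Fuca1, the α-L-fucosidase, fell in set 2 from 31.6, 28.7 and 32.6 CPM to 23.5, 21.8 and 21.4 (-0.48 ± 0.08, adjusted p = 4.72e-07) and in I53A was called with the block (-0.25, adjusted p = 0.00711) but not in the 6-library fit without it (0.0795). Gusb, the β-glucuronidase, was likewise called in I53A with the block (-0.30, adjusted p = 0.00507) and not in the 6-library fit without it (0.0737) and not in set 2 (0.11 ± 0.08, adjusted p = 0.198). The effects on Gusb differed (-0.40 ± 0.13, adjusted p = 0.0242), a call lost in 4 of the alternative fits. Gaa, the acid α-glucosidase of glycogen, was at 101.5 to 123.7 against 107 to 129.9 CPM in set 1, called with the block (0.12, adjusted p = 0.039; 0.409 without), and at 52.7 to 55.2 against 48.6 to 53.1 CPM in set 2. Gla, the α-galactosidase of Fabry disease, was at 17.4, 18.5 and 14.3 against 19.1, 18.0 and 15.6 CPM in set 1 and 19.4, 16.4 and 16.1 against 16.6, 18.1 and 16.2 in set 2. Its groups overlapped in both sets (0.07 ± 0.14, adjusted p = 0.739, and -0.03 ± 0.09, adjusted p = 0.817).

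Sulfatases and the sulfamidase Sgsh remove sulfate from glycans and sulfatides. Arsb (chr13:94541634-94712971, + strand), arylsulfatase B, rose in both sets from very low levels. It had 8, 5 and 3 counts in wild type against 46, 28 and 15 in I53A, which is 0.45, 0.28 and 0.23 against 2.550, 1.576 and 1.185 CPM. Set 2 gave 5, 13 and 26 counts against 52, 31 and 37. Groups were apart in both sets (2.43 ± 0.45, adjusted p = 0.00418, and 1.36 ± 0.34, adjusted p = 0.00054). However, 45.3% of the exon length of Arsb overlaps Gm17447 on the other strand, and reads in that stretch cannot be assigned to 1 of the 2 genes without strand. Arsa, the sulfatidase lost in metachromatic leukodystrophy, fell in set 2 from 15.0, 15.6 and 15.6 CPM to 9.527, 10.69 and 11.001 (-0.57 ± 0.10, adjusted p = 5.2e-06). Its exons overlap C230037L18Rik over 18.8% of their length, and in I53A it was not called (-0.20 ± 0.15, adjusted p = 0.329).

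Galns, the sulfatase of keratan sulfate, fell in set 2 from 8.94, 8.82 and 7.65 CPM to 5.25, 4.23 and 5.43 (-0.75 ± 0.14, adjusted p = 9.63e-06). In I53A it was at 13.3, 12.2 and 12.8 against 12.5, 12.3 and 10.1 CPM, with overlap (-0.13 ± 0.13, adjusted p = 0.491), and the effects differed by 0.65 ± 0.19 (adjusted p = 0.014). Sgsh, which shares 21.6% of its exon length with Card14, was called in neither set, at 3.03 to 3.82 against 4.19 to 4.71 CPM in set 1 and 2.26 to 2.60 against 1.87 to 2.11 in set 2. Apart from Arsb, the called members of this group were lower in set 2 and not called in I53A.

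Of the 7 lipid-handling genes, 2 were higher and 2 lower in I53A (57.1%, beside 35.5% of all genes, or 3 and 3 with the block). None was higher and 4 were lower in set 2 (57.1%, beside 57.7%). Psap, the precursor of the saposins that present glycolipids to hydrolases, was at 276, 265 and 269 CPM in wild type against 370.3, 367 and 369 in I53A. The 2 groups were tight and far apart, and the rise was 0.45 ± 0.06 (adjusted p = 0.000961). In set 2 Psap had the smallest change of all, at 188, 184 and 196 against 194, 183 and 192 CPM (0.001 ± 0.043, adjusted p = 0.983), and the effects differed by 0.47 ± 0.07 (adjusted p = 0.000143). Lipa, the acid lipase that frees cholesterol from esters, was at 12.2, 13.7 and 11.6 CPM in wild type against 23.4, 21.9 and 18.7 in I53A. Its rise of 0.77 ± 0.13 (adjusted p = 0.00239) had no counterpart past the threshold in set 2 (0.16 ± 0.14, adjusted p = 0.345), and the effects differed by 0.63 ± 0.17 (adjusted p = 0.00873).

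The cholesterol carriers fell in I53A. Npc2, the soluble carrier, was at 202, 204 and 146 CPM in wild type against 119, 122 and 97.9 in I53A, with the third replicate lowest on both sides (-0.70 ± 0.14, adjusted p = 0.00686). In set 2 it went from 80.6, 72.4 and 76.0 CPM to 61.3, 64.3 and 60.8 (-0.30 ± 0.05, adjusted p = 4.58e-06), a call that the fit of all 12 libraries lost (adjusted p = 0.0631). The effects on Npc2 differed by -0.38 ± 0.17 (adjusted p = 0.0975; 4.08e-05 with the block). Npc1, the membrane transporter it hands cholesterol to, was at 68.2, 67.6 and 72.4 CPM in wild type against 54.6, 52.4 and 61.2 in I53A (-0.31 ± 0.09, adjusted p = 0.0239). That call was lost when WT replicate 1 (adjusted p = 0.0674), WT replicate 2 (0.0554), I53A replicate 1 (0.0914) or I53A replicate 2 (0.0883) was left out. In set 2 Npc1 was not called (0.12 ± 0.07, adjusted p = 0.142), and the effects differed by -0.40 ± 0.11 (adjusted p = 0.0116).

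Smpd1, the acid sphingomyelinase lost in Niemann-Pick disease types A and B, fell in set 2 from 8.65, 8.54 and 8.58 CPM to 5.73, 6.15 and 5.48 (-0.57 ± 0.13, adjusted p = 0.000212). In I53A it stood at 12.08, 13.85 and 12.92 against 16.1, 14.0 and 18.0 CPM, called with the block (0.30, adjusted p = 0.0458) but not in the 6-library fit without it (0.11). The effects differed by 0.90 ± 0.17 (adjusted p = 0.000657). Asah1, the acid ceramidase that acts on the product of Smpd1, fell in set 2 from 132, 126 and 117 CPM to 97.4, 91.9 and 97.8 (-0.38 ± 0.05, adjusted p = 2.01e-09). In I53A it was at 129, 147 and 118 against 111, 114 and 109 CPM and was called with the block (-0.24, adjusted p = 0.000807) but not in the 6-library fit without it (0.0669). Ppt1, the thioesterase that takes palmitate off proteins, had the smallest change of all in I53A, at 39.8, 38.6 and 41.7 against 38.8, 38.6 and 42.2 CPM (-0.01 ± 0.09, adjusted p = 0.959). It fell in set 2 from 30.7, 28.7 and 27.5 CPM to 22.39, 25.05 and 22.7 (-0.31 ± 0.08, adjusted p = 0.000525), and the difference of the effects (0.32 ± 0.11, adjusted p = 0.0314) was lost in 9 of the alternative fits.

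Of the membrane proteins, Lamp1 was the most abundant of the 40 genes per length in all 4 groups. It was at 479, 470.4 and 474 CPM in wild type against 523, 516 and 536 in I53A, apart, and called with the block (0.15, adjusted p = 0.00235) but not in the 6-library fit without it (0.0972). It rose in set 2 from 352, 328 and 337 CPM to 378, 376 and 369.8 (0.14 ± 0.04, adjusted p = 0.00177). Lamp2, its partner needed for autophagosome fusion, fell in both sets, with an effect that differed by 0.02 ± 0.11 between them: 70.7, 74.5 and 71.0 against 56.0, 63.0 and 59.0 CPM in set 1 (-0.28 ± 0.08, adjusted p = 0.0235), and 65.9, 56.3 and 55.0 against 49.5, 47.4 and 48.5 in set 2 (-0.28 ± 0.06, adjusted p = 0.000109). In I53A its call was lost without WT replicate 1 (adjusted p = 0.0656), WT replicate 2 (0.0839) or I53A replicate 1 (0.0994).

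Scarb2 (chr5:92872899-92934634, - strand) encodes LIMP-2, the carrier of glucocerebrosidase to lysosomes. It was at 46.8, 41.8 and 47.0 CPM in wild type against 23.8, 24.0 and 25.4 in I53A. Set 2 had 35.7, 35.4 and 34.2 CPM in wild type against 20.4, 19.8 and 22.6 in the QKO-labelled libraries. The groups were well apart in both sets, with falls of 0.89 ± 0.09 (adjusted p = 0.000232) and 0.74 ± 0.08 (adjusted p = 2.14e-12), and the difference between them did not pass the test (-0.12 ± 0.11, adjusted p = 0.425). Mcoln1 (chr8:3500457-3515232, + strand) encodes mucolipin 1, the calcium channel of the lysosomal membrane. It was at 53.8, 47.8 and 48.5 CPM in wild type against 33.8, 31.8 and 41.4 in I53A (-0.49 ± 0.12, adjusted p = 0.012), lost without WT replicate 1 (adjusted p = 0.0568) or I53A replicate 1 (0.058). Set 2 took it from 35.57, 34.45 and 36.12 CPM to 31.4, 29.9 and 28.1 (-0.25 ± 0.07, adjusted p = 0.00211).

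Cd63, a tetraspanin of late endosomes and exosomes, could not be measured alone. The annotation holds a processed pseudogene, Cd63-ps, and the 2 sets divided reads between them differently. In set 1 Cd63 had 137, 122 and 65 counts in wild type and 179, 253 and 53 in the I53A libraries, while Cd63-ps had 520, 505 and 356 and then 802, 752 and 469. In set 2 Cd63 had 724, 690 and 796 counts in wild type and 678, 506 and 704 in the QKO-labelled libraries, while Cd63-ps had 44, 38 and 34 and then 58, 15 and 35. Cd63 took 10.2% to 25.2% of the pair's counts in each library of set 1 and 92.1% to 97.1% in set 2. Set, read alignment and cells cannot be told apart here. By itself Cd63 was not called in I53A (0.55 ± 0.40, adjusted p = 0.329; 0.0508 with the block), was 0.73 higher on replicates 1 and 2 and -0.27 in the pair numbered 3, and was at a log2 difference of -2.73 between wild type of set 1 and of set 2. In a fit added after seeing the data, the counts of both were summed. The sum was at 36.9, 35.0 and 32.2 CPM in wild type against 54.4, 56.6 and 41.2 in I53A, groups that did not overlap (0.55 ± 0.13, adjusted p = 0.0122). It was at 44.6, 40.1 and 38.5 CPM in wild type of set 2 and 31.4, 32.4 and 34.6 in the QKO-labelled libraries, a fall by 0.32 ± 0.07 (adjusted p = 7.27e-05). With the sum, the effects differed by 0.89 ± 0.16 (adjusted p = 0.000414), and the 2 wild types differed by -0.41 ± 0.11.

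**Figure D3:**
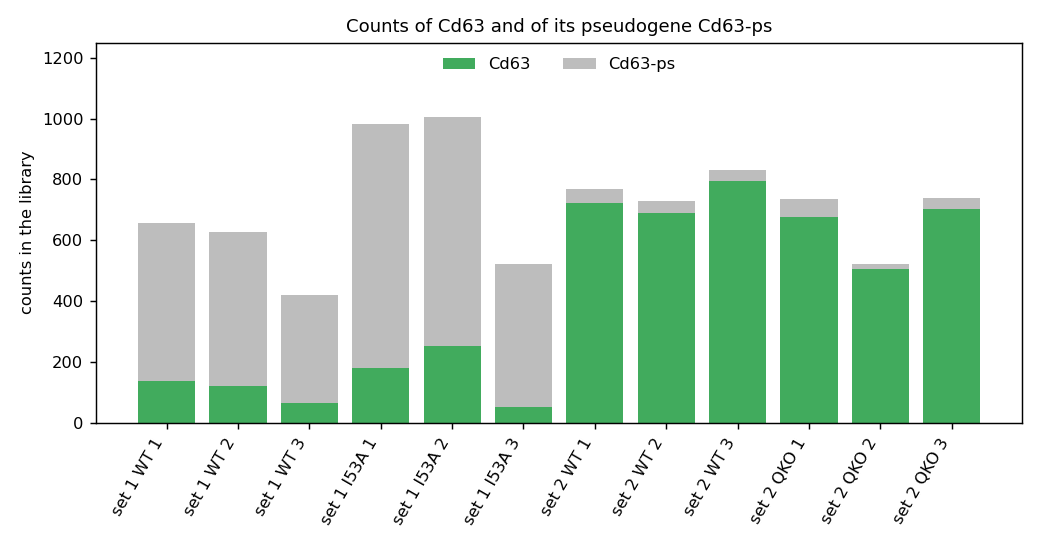
Counts of Cd63 (green) and of its pseudogene Cd63-ps (grey), stacked, in each of the 12 libraries (y axis, counts as deposited). Cd63-ps holds most of the pair's counts in the 6 libraries of set 1 and few in the 6 of set 2, where Cd63 has 92.1% or more.

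Progranulin, encoded by Grn, is a secreted and lysosomal glycoprotein whose loss causes a ceroid lipofuscinosis. It was at 116, 116 and 149 CPM in wild type against 129.5, 119.9 and 151.8 in I53A, with the third replicate highest in both groups and ranges that overlapped (0.08 ± 0.13, adjusted p = 0.683). In set 2 it was at 49.55, 48.28 and 56.20 against 45.7, 44.7 and 45.2 CPM (-0.19 ± 0.06, adjusted p = 0.00915). This call was lost without set 2 WT replicate 3 (adjusted p = 0.107).

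The 2 comparisons have separate wild types and share no library. Of the 38 genes tested in both, 9 were called in both, beside 3364 (23.1%) of all 14589 genes tested in both. Of these 9, 8 went in the same direction, beside 2240 of the 3364. Ctsc, Ctsl and Arsb were higher in both sets, and Hexa, Scarb2, Npc2, Lamp2 and Mcoln1 lower in both. Man2b1 was the exception. With the block in set 1, 15 were called in both, 11 in the same direction, as Lamp1 joined those higher in both and Fuca1 and Asah1 those lower in both. Manba, Neu1 and Smpd1 then joined Man2b1 in opposite directions. The block also raised the calls over all genes in set 1 from 5512 to 8798. The share of all genes called in both sets was not computed with it, so these larger counts have no background beside them. A further 7 were called in I53A only, 15 in set 2 only and 7 in neither (10, 9 and 4 with the block), and a call in 1 set alone does not show a difference between the sets. Over the 38 genes, Pearson's r of the log2 fold changes was 0.433 and Spearman's rho 0.374, beside 0.324 and 0.202 over all 14589. Without Ctsh, Ctsc and Arsb, left out after seeing their values, r was 0.292. The sign was the same for 26 of 38 (68.4%), beside 56.8% of all genes. These are descriptions across genes, which share their libraries and are not independent replicates.

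The test of the difference itself, the I53A effect minus the effect in set 2 over all 12 libraries, was passed by 21 of 39 genes (53.8%, beside 36.1% of 16501). Of these, 13 had a more positive effect in I53A, with Ctsh, Ctsc, Neu1, Ctsl and Smpd1 leading, followed by Ctsz, Galns, Lipa, Hexa, Psap, Ctsa (0.37 ± 0.10, adjusted p = 0.00941), Ppt1 and Ctsd (0.26 ± 0.08, adjusted p = 0.0217). The call of Ctsd was lost in 5 of the alternative fits. A more negative effect in I53A was found for 8: Ctsk, Manba (-0.92 ± 0.09, adjusted p = 2.14e-06), Idua, Man2b1, Ctsb, Glb1, Npc1 and Gusb. With the block, Gaa (adjusted p = 0.00613), Fuca1 (0.0472), Arsa (0.0178), Grn (0.00177), Npc2 and Cd63 (0.00439) also passed. Without the block and with all 12 libraries, none of the 5 membrane protein genes passed, unless Cd63 was summed with Cd63-ps. Without I53A replicate 3, Cd63 (adjusted p = 0.000278) and Mcoln1 (0.028) passed.

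**Figure D4:**
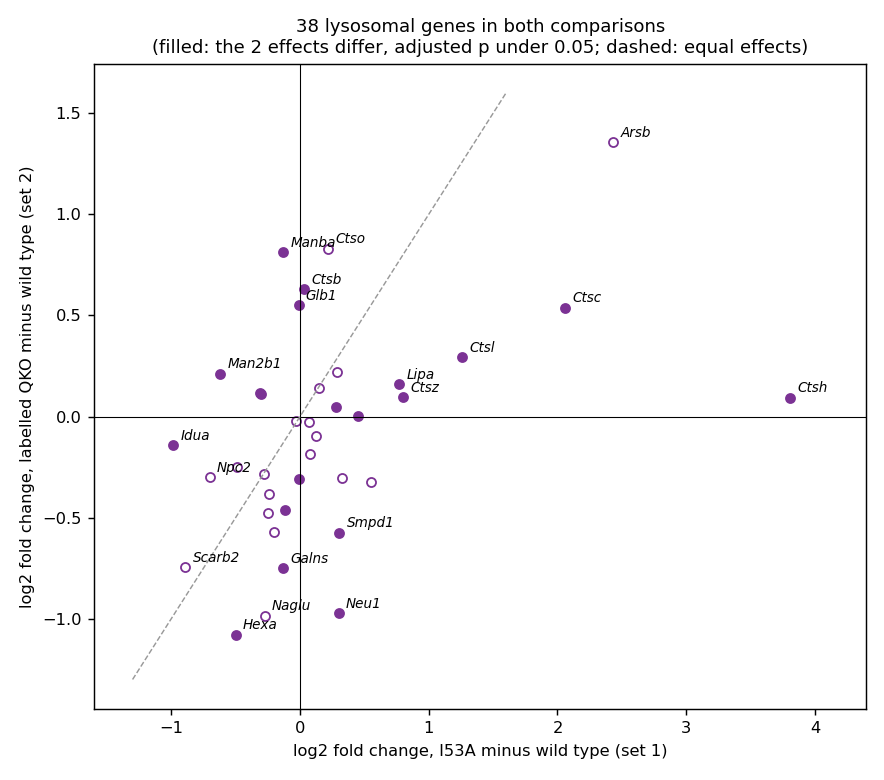
Log2 fold change of 38 lysosomal genes in I53A (x axis) against that in libraries labelled QKO (y axis). Each point is 1 gene, filled where the 2 effects differed at an adjusted p under 0.05; the dashed line marks equal effects. Ctsh lies far to the right at 3.81 and near 0 on the y axis, while Hexa and Scarb2 lie in the lower left with falls in both.

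Levels were compared between genes per transcript length, as RPKM over all 12 libraries. In wild type of set 1 Lamp1 stood first at 198 ± 4.3 RPKM (SD, n = 3), followed by Ctsd at 95.1 ± 4.2, Psap at 93.4 ± 2.9 and Ctsl at 78.8 ± 14.6. Ctsd and Psap, and Psap and Ctsl, did not differ beyond their spread. In I53A Ctsl was second, at 189 ± 42, behind Lamp1 at 220.5 ± 1.0, with Psap at 128 ± 2.6 and Ctsd at 116 ± 4.9. In wild type of set 2 the order was Lamp1 at 160.0 ± 5.4, Psap at 73.8 ± 2.7, Ctsl at 71.8 ± 3.0 and Ctsd at 53.4 ± 2.2, of which Psap and Ctsl did not differ beyond their spread. The libraries labelled QKO had Lamp1 at 174 ± 1.8, Ctsl at 86.7 ± 4.6, Psap at 72.7 and Ctsd at 54.3 ± 0.8. Ctsh, near the bottom of the order in the 3 other groups (rank 35 or 36 of 40), was at rank 22 in I53A, with 8.43 ± 1.16 RPKM. Ctss, Ctso, Ctsk, Arsb and Sgsh were under 1 RPKM in every group.

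**Figure D5:**
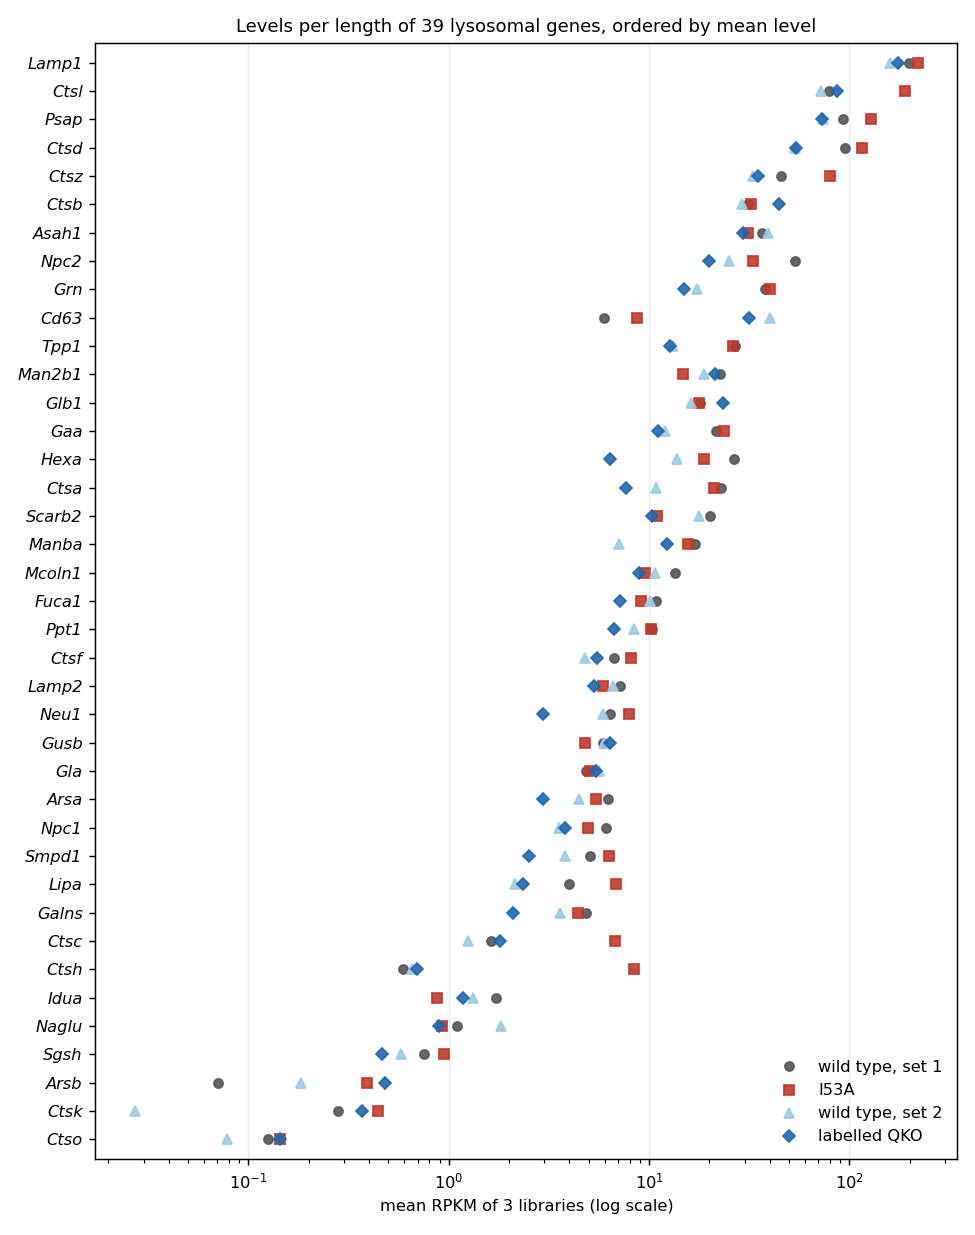
Mean level of 39 of the 40 genes (all but Ctss) as RPKM on a log axis, 1 symbol for each of the 4 groups of 3 libraries, ordered by the mean over groups. Lamp1 is highest in each group, Ctsh stands apart in I53A, and Cd63 differs between the sets.

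The wild types themselves differed. Of 39 genes, 24 were higher and 3 lower in wild type of set 1 than of set 2 (69.2% called, beside 57.4% of all genes), with a median of 0.38 against 0.02 over all genes. Ctsk, at very low counts, differed by 3.23 ± 0.75, and the next largest among those higher in set 1 were Manba (1.27 ± 0.06, adjusted p = 3.21e-10), Grn (1.14 ± 0.10), Npc2 (1.11 ± 0.12), Ctsa (1.09 ± 0.07) and Tpp1 (1.03 ± 0.09). Naglu (-0.72 ± 0.20), Arsb (-1.36 ± 0.53) and Cd63 were lower in set 1. Set and read processing cannot be told apart in this comparison, so levels are read within a set.

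The MiT/TFE factors themselves did not move alike in the 2 sets. Mitf was at 29.0, 25.6 and 28.6 CPM in wild type against 14.8, 13.7 and 12.7 in I53A (-1.01 ± 0.11, adjusted p = 0.000291), and Tcfeb, which encodes TFEB, was at 39.3, 36.7 and 44.8 against 20.9, 16.3 and 25.8 (-0.94 ± 0.17, adjusted p = 0.00314). Neither gene's groups overlapped. In set 2 Mitf rose from 9.86, 8.05 and 8.21 CPM to 13.9, 14.0 and 12.6 (0.63 ± 0.11, adjusted p = 3.5e-06) and Tcfeb from 20.1, 24.8 and 24.9 to 39.3, 35.7 and 40.0 (0.72 ± 0.08, adjusted p = 1.99e-11). Tcfe3, encoding TFE3, was lower in both (-0.44 ± 0.11, adjusted p = 0.0135, and -0.21 ± 0.05, adjusted p = 0.000512). Tcfec, encoding TFEC, had no count in wild type of set 1 and 285 counts in I53A, at least 95.6-fold higher when wild type is set to a floor of 3 counts for the group, and was too low to test in set 2. Rragd, a Rag GTPase of the mTORC1 pathway at the lysosomal surface, fell in both sets, from 42.9, 48.7 and 49.9 CPM to 19.6, 21.8 and 19.6 in I53A (-1.21 ± 0.10, adjusted p = 7.86e-05) and from 28.1, 29.3 and 30.9 to 14.9, 17.03 and 15.3 in set 2 (-0.91 ± 0.08, adjusted p = 7.01e-14).

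Other genes of the organelle were counted from lists made for their role, with earlier results of these data known. Of 21 tested subunits of the V-ATPase, the proton pump that acidifies lysosomes, none was higher and 2 were lower in I53A (9.52% called, beside 35.5% of all genes), Atp6v0d1 (-0.48 ± 0.10, adjusted p = 0.00818) and Atp6v1b2 (-0.41 ± 0.07, adjusted p = 0.00184). With the block 8 of the 21 were higher and 4 lower, beside 8798 of all 15536 genes called, so the low share was not kept. Set 2 had 3 higher and 10 lower (61.9%, beside 57.7% of all genes), with Tcirg1 at -1.27 and Atp6v1c2 at 1.78. The median was 0.05 and -0.15. Of 33 other luminal enzymes and activators, 11 were higher and 4 lower in I53A (45.5% called, beside 35.5% of all genes, median 0.002, or 13 and 10 with the block). In set 2 4 were higher and 12 lower (48.5%, beside 57.7%, median -0.12). The genes with the largest rises in I53A were Smpdl3a (3.15), the heparanase gene Hpse (2.42) and Plbd1 (1.20), and Napsa (-1.48) and Smpdl3b (-0.79) were among those that fell. In set 2 Aga (1.19) and Prcp (0.66) led the rises, and Hyal1 (-0.78) and Siae (-0.65) the falls.

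Of 29 other lysosomal membrane proteins, 3 were higher and 7 lower in I53A (34.5%, or 7 and 10 with the block), and 5 higher and 12 lower in set 2 (58.6%), shares near those of all genes without the block. The scavenger receptor gene Cd68 was lower in I53A, from 39.83, 38.97 and 44.72 CPM to 16.4, 13.0 and 16.3 (-1.44 ± 0.12, adjusted p = 8.68e-05), and higher in set 2, from 8.94, 5.90 and 8.53 to 11.2, 10.7 and 10.4 (0.465 ± 0.128, adjusted p = 0.00163). Hgsnat, the acetyltransferase of heparan sulfate breakdown, fell in both (-0.91 ± 0.11, adjusted p = 0.000598, and -1.18 ± 0.10, adjusted p = 2.64e-15). The mucolipin gene Mcoln3, related to Mcoln1, rose in I53A from 0.51, 0.73 and 0.69 CPM to 2.05, 2.53 and 1.97 (1.77 ± 0.31, adjusted p = 0.00308), opposite to Mcoln1. Of 31 genes for sorting to lysosomes, 4 were higher and 8 lower in I53A (38.7%, beside 35.5% of all genes, or 6 and 12 with the block). In set 2 8 were higher and 16 lower (77.4%, beside 57.7%). Both mannose 6-phosphate receptor genes rose in both sets, M6pr by 0.48 ± 0.12 (adjusted p = 0.0169) and 0.23 ± 0.04 (adjusted p = 6.61e-06) and Igf2r by 0.40 ± 0.09 (adjusted p = 0.00937) and 0.37 ± 0.04 (adjusted p = 1.41e-10). The receptor genes Sort1 (-1.29 ± 0.11, adjusted p = 0.000103) and Sorl1 (-0.75 ± 0.09, adjusted p = 0.000575) and the adaptor subunit gene Ap1m1 (-0.96 ± 0.08, adjusted p = 7.64e-05) fell in I53A. Medians of these 2 lists lay between -0.18 and -0.05.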

How the data were processed

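Total RNA of 12 samples was made into Illumina TruSeq libraries, per the labels' protocols. The authors deposited raw read counts per gene, made with featureCounts 1.6.3 in paired mode by gene name on an mm9 annotation, with no strand option, per the file headers. HISAT2 and DESeq2 are named by the submitters' processing notes without versions, while alignment file names carry the word tophat in set 1 and not in set 2, per the file headers. Members and lists were chosen with earlier results of these data known. From the counts, TMM-scaled CPM and RPKM were computed and edgeR 4.0.16 (R 4.3.3, limma 3.58.1) quasi-likelihood tests were run, two-sided, with Benjamini-Hochberg adjustment over all genes passing filterByExpr, on the 6 libraries of each set, or on 12 for the difference between effects. The test was tried on simulated counts. SE is the absolute log2 fold change divided by the square root of F.

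Replicate numbers were checked for pairing: deviations from group means of same-numbered libraries correlated at 0.229, 0.258 and 0.491 in set 1. WT 1 with I53A 2 (0.218) and WT 2 with I53A 1 (0.241) correlated alike, and replicate 3 correlated negatively with replicates 1 and 2 of the other group. Deviations sum to 0 within a group, so these negative signs follow from the positive ones and add no evidence. The check does not show pairing by number within replicates 1 and 2. The block is given in set 1 beside calls and counts that it changes. Alternatives were size factors of DESeq2 1.42.0, library totals, the DESeq2 Wald test, filters, the block and leaving out each library. Full statistics go to members with the largest and smallest changes, the highest levels, and those called in both sets or in the difference; from other lists, up to 3 called genes per direction with the largest changes are named, and all MiT/TFE factors. Promoters are RefSeq's (GRCm38.p6). Single-library counts carry counting error only in intervals. One gene of these lists is not reported here by name.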

Additional observations from a re-analysis of the deposited data

How the results depend on the processing

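Directions did not reverse for any called gene under the alternatives run. With the replicate block, the genes called higher in I53A went from 8 to 13 and those called lower from 8 to 12, with 8798 of all genes called; on replicates 1 and 2 only, 8343 of all genes were called. Leaving out 1 library at a time gave 7 to 9 genes higher and 5 to 9 lower in I53A, the lower end of 5 without WT replicate 1 or I53A replicate 1, with 3828 to 5917 of all genes called, 8 to 11 higher and 15 to 16 lower in set 2, and 11 to 15 and 6 to 9 for the difference between effects. Other scalings, the DESeq2 Wald test and other filters called 8 higher and 8 lower in I53A and 8 or 9 higher and 16 lower in set 2. Same-numbered libraries correlated at 0.0236, -0.00393 and 0.0420 in set 2, so numbers there only name samples, and the block left 8 higher and 16 lower. The fit of all 12 libraries called 12 higher and 11 lower in I53A and 8 higher and 13 lower in set 2, where it did not call Cd63 (adjusted p = 0.373) or Grn (0.161), besides Ctsl and Npc2. Without set 2 WT replicate 3, Ctsf (adjusted p = 0.0436), Ctso (0.0485) and Ctsz (0.027) were called higher. Summing Cd63 and Cd63-ps, chosen after seeing the data, gave 9 higher and 8 lower in I53A. The cause of these shifts was not tested. Counts of Ctsk, Ctss, Ctso and Arsb limit what can be seen of them, and changes smaller than the spread between 3 libraries were not detectable.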

Other observations

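Genes that feed the lysosome or curb its proteases were also counted. Of 29 autophagy genes, 5 were higher and 6 lower in I53A (37.9% called, beside 35.5% of all genes, or 7 and 10 with the replicate block) and 6 higher and 11 lower in the QKO-labelled libraries (58.6%, beside 57.7%). Gabarapl2, an ATG8 family member that coats autophagosomes, was the one with the largest rise in I53A and in set 2 among them. It went from 29.9, 29.4 and 19.3 CPM to 69.95, 77.3 and 59.0 in I53A (1.39 ± 0.18, adjusted p = 0.000803) and from 104, 114 and 98.3 to 289.4, 302.2 and 303.5 in set 2 (1.502 ± 0.046, adjusted p = 7.81e-32). Optn, an autophagy receptor, fell in both (-0.68 ± 0.16, adjusted p = 0.0135, and -1.29 ± 0.14, adjusted p = 3.91e-11). Wipi1 (-0.90 ± 0.10, adjusted p = 1.7e-11) fell in set 2, and Map1lc3b (-0.42 ± 0.09, adjusted p = 0.00802) fell in I53A.

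Of 17 genes of mTORC1 and folliculin at the lysosome, 2 were higher and 4 lower in I53A (35.3%, beside 35.5% of all genes, or 6 and 5 with the block). In set 2 2 were higher and 5 lower (41.2%, beside 57.7%). The Rag GTPase gene Rragb fell in I53A from 19.9, 23.7 and 18.0 CPM to 5.71, 5.18 and 6.79 (-1.81 ± 0.16, adjusted p = 0.00011), while Rraga rose (0.50 ± 0.10, adjusted p = 0.00488). Cystatins inhibit cysteine cathepsins. Cst3 (0.59 ± 0.08, adjusted p = 0.00117) and Cstb (0.29 ± 0.08, adjusted p = 0.0208), the 2 tested, rose in I53A, where 18.1% of all genes were called higher. Cstb fell in set 2 (-0.33 ± 0.09, adjusted p = 0.00143), where 29% of all genes were called lower.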
